A study of Mus musculus with 6 samples.

Results

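TRBV12 and TRBV13 are 2 neighbouring families of variable gene segments of the mouse T cell receptor beta chain, and 5 of their genes were named in the receptor contigs analysed here: TRBV12-1, TRBV12-2, TRBV13-1, TRBV13-2 and TRBV13-3. Members were all beta chain contigs whose variable gene name started with TRBV12- or TRBV13-. A further class holds contigs that the deposited tables list under both TRBV12-2 and TRBV13-2 at once, here called the joint name. Among T cells with a productive beta chain, 864 of 2968 in the WT mouse and 1346 of 4166 in the 564Igi mouse had one of these names on the beta contig with the most unique molecular identifiers (UMIs, counts of captured mRNA molecules), here called the primary chain.

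The study compared the spleens of 2 mice, 1 per genotype. The WT mouse was C57BL/6JRj. The 564Igi mouse was heterozygous for Igktm1(Igk564)Tik and Ightm1(Igh564)Tik on a B6.129S4(Cg) background. These alleles place immunoglobulin light and heavy chain genes of the 564 antibody into their own loci, while T cell receptor genes rearrange as usual. Erythroid cells were removed from the splenocytes by a Ter-119 negative selection, and 5' V(D)J libraries of single cells were made for B and T cell receptors. With 1 mouse per genotype there is no replicate, so no test compared the genotypes, and all intervals are exact (Clopper-Pearson) 95% binomial intervals that cover counting error only.

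T cells were the barcodes that the T cell table, but not the same mouse's B cell table, marks as cells, which left out 345 WT and 373 564Igi barcodes called in both. This gave 3263 WT and 4573 564Igi T cells, with a median of 11 and 10 UMIs on the primary beta contig and 4 UMIs on the primary alpha contig in both mice. The tables held 86409 UMIs in 17630 contigs for WT and 114433 UMIs in 24033 contigs for 564Igi. In each mouse, 23 T cell barcodes were also T cell barcodes of the other mouse. T cells were recognised by their receptor contigs alone, as gene expression was not analysed here. At least 1 contig of these genes was listed in 31.8% of WT and 35.7% of 564Igi T cells, against 0.307% (0.188 to 0.474) of 6513 WT and 0.575% (0.361 to 0.869) of 3827 564Igi B cells, at a median of 70 and 53 UMIs per B cell.

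A T cell receptor beta chain is built by joining a V, a D and a J segment, and the third complementarity-determining region (CDR3), which spans the join and starts with the last bases of the V segment, makes most of the contact with the peptide. Antibody-based work knows these families as Vβ5 (TRBV12) and Vβ8 (TRBV13). In mice, Vβ8 genes, above all TRBV13-2, are known as the main beta partners of the invariant alpha chain of natural killer T (NKT) cells, which see lipids bound to CD1d, while Vβ5-bearing T cells are reduced in strains that carry certain endogenous retroviral superantigens together with MHC class II I-E, which C57BL/6 lacks.

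The 6 genes alternate along chromosome 6 (RefSeq, GRCm38.p6). Trbv12-1 (older name Vβ5.2) lies at chr6:41113567-41114067, Trbv13-1 (Vβ8.3) at chr6:41116036-41116468, Trbv12-2 (Vβ5.1) at chr6:41118864-41119364, Trbv13-2 (Vβ8.2) at chr6:41121396-41121832 and Trbv13-3 (Vβ8.1) at chr6:41130147-41130585. Between the last 2 lies Trbv12-3 (Vβ5.3, chr6:41127592-41128076), which the annotation marks as a pseudogene and which named 0 contigs in both mice. The gap between Trbv12-2 and Trbv13-2, the 2 genes of the joint name, is 2031 bases.

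The first 15 bases of the CDR3, given as the most frequent start of each class among primary productive chains, show which V segments the bases can tell apart. Capitals mark the positions, between bases 10 and 15 counted from the first base of the CDR3, at which the classes differ.
TRBV12-1: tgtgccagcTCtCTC
TRBV12-2: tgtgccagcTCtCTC
TRBV13-1: tgtgccagcAGtGAT
TRBV13-3: tgtgccagcAGtGAT
TRBV13-2: tgtgccagcGGtGAT
joint name: tgtgccagcGGtGAT
TRBV12-1 and TRBV12-2 had the same start, as had TRBV13-1 and TRBV13-3. TRBV13-2 differed from TRBV13-1 by A10G, which turns the serine codon at residue 4 into a glycine codon. The TRBV12 start differed from that of TRBV13-1 at 5 positions (A10T, G11C, G13C, A14T and T15C).

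Chains with the joint name carried the start of TRBV13-2. In WT, 197 of 230 joint-name chains (85.7%, 80.4 to 89.9) had the first 12 bases of TRBV13-2, and in 564Igi 292 of 361 (80.9%, 76.4 to 84.8). The share among chains named TRBV13-2 alone was 84.2% (72.1 to 92.5, 48 of 57) and 78.2% (68.0 to 86.3, 68 of 87). The TRBV12-2 start was on 0 of 230 and 0 of 361 joint-name chains, which allows shares of up to 1.30% and 0.831%, whereas 80.2% and 81.8% of TRBV12-2 chains had it. Glycine stood at residue 4 in 226 of 230 WT (98.3%) and 349 of 361 564Igi joint-name chains (96.7%), beside 55 of 57 and 84 of 87 TRBV13-2 chains, and in 2 of 111 and 1 of 170 TRBV12-2 chains. By its CDR3, the joint name was thus a group of chains like TRBV13-2 and unlike TRBV12-2.

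The rest of the contig gave a mixed picture. The contig length outside the CDR3, which covers whatever of the leader, V segment and constant region was assembled, had a median of 617 bases for joint-name chains, 663 for TRBV12-2 and 596 for TRBV13-2 in WT, and of 616, 654.5 and 593 in 564Igi. The 10-base bin from 610 to 619 bases was the fullest for both the joint name (31.3% of WT and 27.7% of 564Igi chains) and TRBV12-2 (22.5% and 24.1%) in both mice, and for TRBV13-2 in 564Igi (16.1%), while in WT TRBV13-2 was fullest from 590 to 599 bases (21.1%). Contigs of at least 800 bases outside the CDR3 made up 23.0% (17.8 to 29.0) and 24.7% (20.3 to 29.4) of joint-name chains and 41.4% (32.2 to 51.2) and 35.3% (28.1 to 43.0) of TRBV12-2 chains. Of TRBV13-2 chains, 1 of 57 in WT (1.75%, 0.0444 to 9.39) and 2 of 87 in 564Igi (2.30%, 0.280 to 8.06) were as long. So were 2 of 112 and 1 of 205 TRBV12-1 chains, 0 of 178 and 1 of 268 TRBV13-1 chains, and 0 of 176 and 0 of 255 TRBV13-3 chains. Such long contigs were not particular to these families. They made up 8.84% and 7.94% of chains pooled over the other genes, with 36.6% and 36.8% for TRBV19. For TRBV16 they were 28.0% and 22.1%, for TRBV2 19.8% and 14.5%, and for TRBV5 0% and 0.763%. The total share of chains that would have to change bin to turn one length profile into the other was 34.7% in WT and 23.6% in 564Igi between the joint name and TRBV12-2, against 65.1% and 62.4% between the joint name and TRBV13-2. By this distance the joint name was nearer to TRBV12-2 than to TRBV13-2 in both mice, but it did not match TRBV12-2: its medians were nearer to those of TRBV13-2, and in WT its share of contigs of at least 800 bases was lower than that of TRBV12-2, with intervals that did not overlap. For scale, the distance between TRBV13-2 and TRBV13-3 was 34.2% and 34.4%. The cause of the length differences was not tested.

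**Figure D1:**
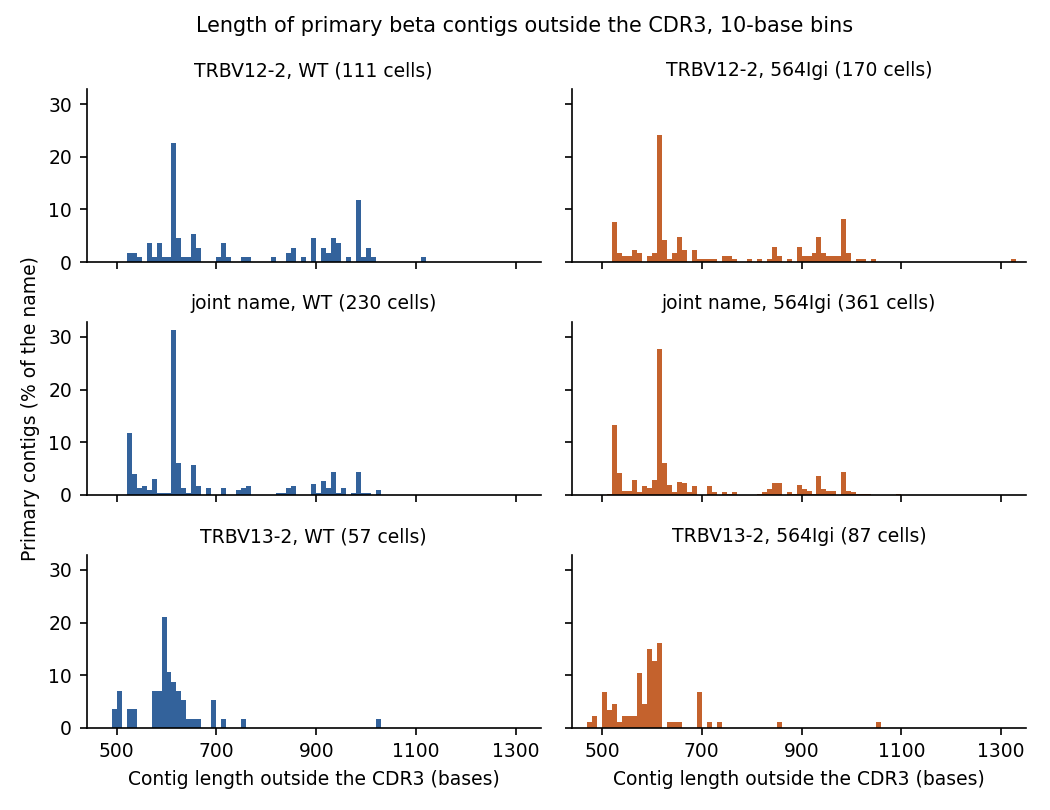
Contig length outside the CDR3 (x axis, bases, in 10-base bins) for primary productive beta contigs named TRBV12-2, the joint name or TRBV13-2, as a percentage of the contigs of that name (y axis), with WT on the left and 564Igi on the right. The bin of 610 to 619 bases is the fullest in every panel but WT TRBV13-2, and the tail beyond 800 bases, tallest for TRBV12-2, held 1 of 57 WT and 2 of 87 564Igi TRBV13-2 contigs.

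Many rearrangements stood under both names in the same cell. Here a rearrangement is 1 cell barcode with 1 CDR3 nucleotide sequence, counted over all beta contigs of T cells with a CDR3, with or without the authors' high-confidence flag. Of 340 WT rearrangements named TRBV13-2 or joint, 164 (48.2%, 42.8 to 53.7) were listed under both names, and of 543 in 564Igi 252 were (46.4%, 42.2 to 50.7). Seen from TRBV13-2, 86.3% (164 of 190) and 86.0% (252 of 293) of its rearrangements were also listed under the joint name. No rearrangement was listed under both the joint name and TRBV12-2. In the pairs, the joint-name contig held 72.1% of the UMIs in WT and 71.8% in 564Igi, with a median of 6 UMIs beside 2 in WT and 7 beside 2 in 564Igi. It had more UMIs than the TRBV13-2 contig in 120 of 164 and 179 of 252 pairs and was the longer contig in 146 and 214. In 0 pairs did both contigs carry the high-confidence flag, and all contigs in the pairs were called productive. The flag was on the joint-name contig in 122 WT and 180 564Igi pairs and on the TRBV13-2 contig in 42 and 70, so no rearrangement counts under both names once the flag is required.

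The pair with most UMIs in each mouse is shown as an example, with the residue 4 codon in capitals.
WT, TRBJ1-1: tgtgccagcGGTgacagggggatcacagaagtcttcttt
564Igi, TRBJ2-7: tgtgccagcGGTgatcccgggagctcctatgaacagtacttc
In the WT cell this CDR3 was listed on a joint-name contig of 1060 bases with 109 UMIs and on a TRBV13-2 contig of 659 bases with 2 UMIs. In the 564Igi cell it was listed on a joint-name contig of 793 bases with 30 UMIs and on a TRBV13-2 contig of 631 bases with 1 UMI.

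**Figure D2:**
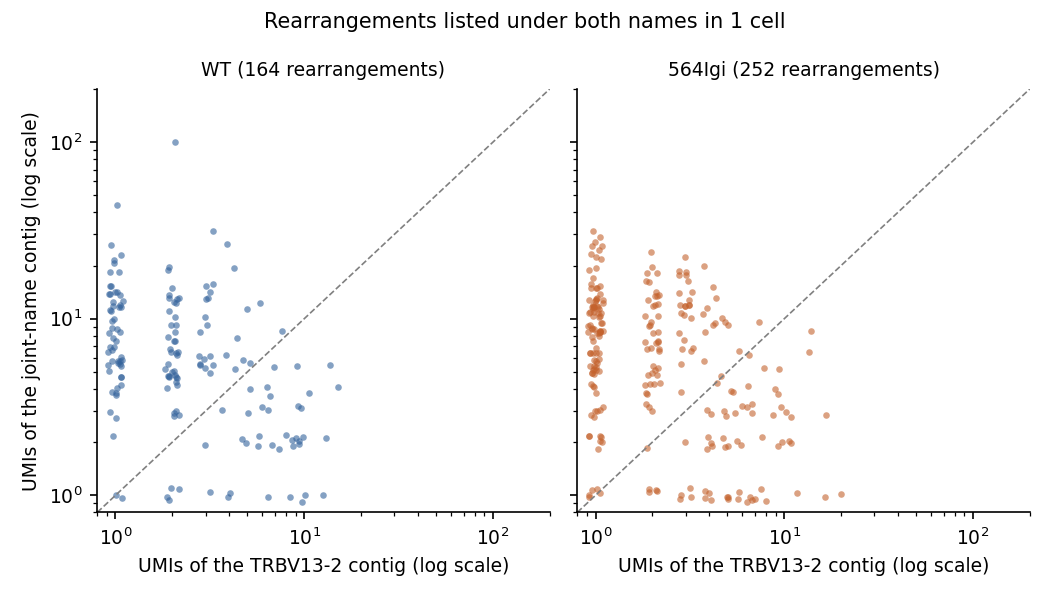
UMIs of the joint-name contig (y axis, log scale) against UMIs of the TRBV13-2 contig (x axis, log scale) for each rearrangement listed under both names in 1 cell, with points spread slightly to show overlaps and the dashed line marking equal UMIs. In WT 120 of 164 and in 564Igi 179 of 252 rearrangements lie above the line.

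A smaller set of rearrangements shared the joint name with TRBV13-1, 26 in WT and 39 in 564Igi. In all 26 WT and in 33 of 39 564Igi cases residue 4 was serine, and in 0 it was glycine. The joint-name contig of these pairs had a median of 1 UMI in both mice, against 16.5 and 13 UMIs on the TRBV13-1 contig. It carried the high-confidence flag in 0 WT and 5 564Igi pairs, and the TRBV13-1 contig did in 26 and 34. The remaining double listings within these genes were 1 WT and 6 564Igi rearrangements under TRBV12-1 and TRBV12-2, 1 and 2 under the joint name and TRBV13-3, and 0 and 1 under TRBV13-1 and TRBV13-3. Double listings with any other beta variable gene numbered 0 in both mice, out of 3393 WT and 4845 564Igi beta rearrangements.

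Together the genes supplied the primary chain of 29.1% (27.5 to 30.8) of WT and 32.3% (30.9 to 33.8) of 564Igi T cells with a productive beta chain. In WT, the joint name was on 7.75% of cells (6.81 to 8.77), TRBV13-1 on 6.00% (5.17 to 6.91), TRBV13-3 on 5.93% (5.11 to 6.84), TRBV12-1 on 3.77% (3.12 to 4.52), TRBV12-2 on 3.74% (3.09 to 4.49) and TRBV13-2 on 1.92% (1.46 to 2.48). In 564Igi the joint name was on 8.67% (7.83 to 9.56), TRBV13-1 on 6.43% (5.71 to 7.22), TRBV13-3 on 6.12% (5.41 to 6.89), TRBV12-1 on 4.92% (4.28 to 5.62), TRBV12-2 on 4.08% (3.50 to 4.73) and TRBV13-2 on 2.09% (1.68 to 2.57). The order was the same in both mice. Within it, the intervals of TRBV13-1 and TRBV13-3 overlapped, as did those of TRBV12-1 and TRBV12-2, in WT also those of the joint name with TRBV13-1 and TRBV13-3, and in 564Igi those of TRBV13-3 and TRBV12-1.

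Where TRBV13-2 ranks depended on the name. By its own name it was 20th of the 22 beta variable gene names in both mice. Summed with the joint name it was on 9.67% (8.63 to 10.8, 287 cells) of WT and 10.8% (9.83 to 11.7, 448 cells) of 564Igi T cells, above TRBV3, which had the highest share of any single name (7.88%, 6.94 to 8.91, and 8.74%, 7.90 to 9.64). The intervals of the sum and of TRBV3 overlapped in WT and not in 564Igi. Of the summed chains, 80.1% (75.05 to 84.6) in WT and 80.6% (76.6 to 84.1) in 564Igi had the joint name. Among chains of at least 10 UMIs these shares were 87.6% (85 of 97) and 90.5% (162 of 179).

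**Figure D3:**
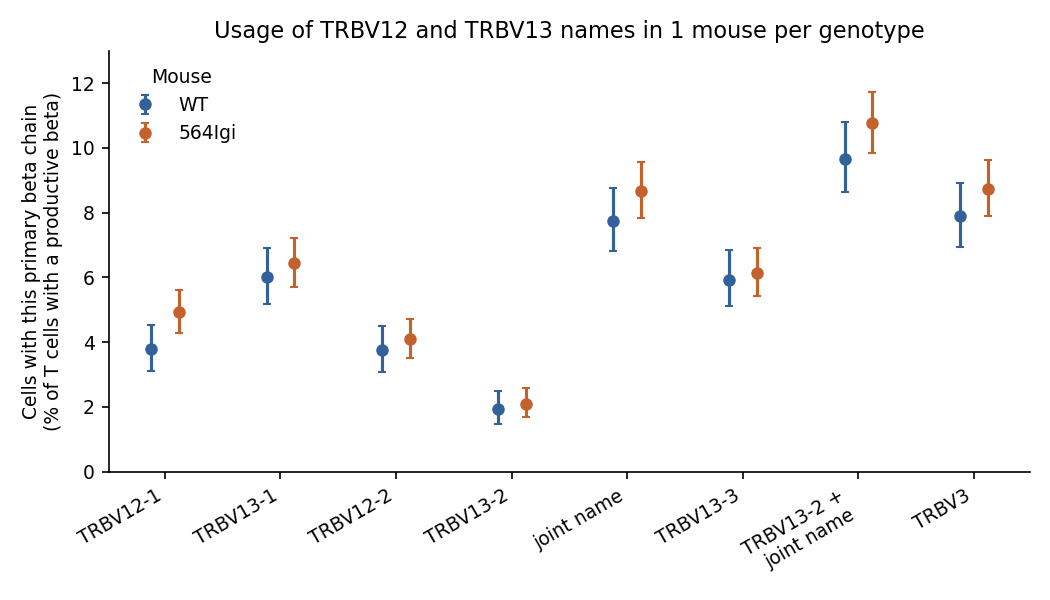
Share of T cells with a productive beta chain (y axis, percent) whose primary chain had each name (x axis), with 95% exact intervals for counting error in 1 WT (blue) and 1 564Igi (orange) mouse. TRBV13-2 alone is the lowest at 1.92% and 2.09%, and its sum with the joint name lies at 9.67% and 10.8%, with TRBV3 shown beside it.

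Each of the 6 classes had a higher share in the 564Igi mouse, as had TRBV14, TRBV15, TRBV2, TRBV3 and TRBV30. The remaining names had a lower share there. None of the 6 classes had intervals that did not overlap between the mice. The same held over all beta variable gene names, of which 0% of 22 did. Among the 6 classes, the largest difference was for TRBV12-1, at 1.15 percentage points (0.164 to 2.11, combined from both exact intervals by Newcombe's method). It was followed by the joint name at 0.916 (-0.404 to 2.21), TRBV13-1 at 0.436 (-0.733 to 1.58), TRBV12-2 at 0.341 (-0.605 to 1.26), TRBV13-3 at 0.191 (-0.963 to 1.32) and TRBV13-2 at 0.168 (-0.528 to 0.836). Summed over the 6 classes the difference was 3.20 points (1.01 to 5.38), and the intervals of the sums (27.5 to 30.8 and 30.9 to 33.8) did not overlap. Restricted to cells with exactly 1 productive beta and 1 productive alpha contig, a setting added for this difference after the data were seen, it was 1.77 points (-1.08 to 4.59). How often sums over other sets of names had intervals apart was not counted. With 1 mouse each, genotype cannot be told apart from the individual animal, strain supply or library.

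Contigs not called productive, which include out-of-frame rearrangements, made up a larger share of TRBV12-1 than of TRBV12-2 contigs. The deposited tables did not call 18 of 135 TRBV12-1 contigs productive in WT (13.3%, 8.10 to 20.3) and 26 of 259 in 564Igi (10.0%, 6.66 to 14.4). For TRBV12-2 they were 4 of 121 (3.31%, 0.908 to 8.25) and 4 of 183 (2.19%, 0.599 to 5.50). The difference was 10.0 points in WT (2.83 to 17.3) and 7.85 points in 564Igi (3.12 to 12.5), both intervals lying above 0, while the intervals of the shares themselves overlapped slightly in WT and not in 564Igi. All other beta variable genes stood at 7.22% (6.21 to 8.33) and 6.28% (5.46 to 7.17) when pooled. Single genes among them reached or passed the level of TRBV12-1 in at least 1 mouse. TRBV23 stood at 50% and 47.7%, TRBV10 at 13.7% and 9.36% and TRBV15 at 13.5% and 6.22%. TRBV17 stood at 7.87% and 17.4% and TRBV31 at 8.90% and 10.9%, while the remaining other genes lay below TRBV12-1 in both mice. TRBV13-1 had 5.64% and 5.84%, TRBV13-3 5.67% and 5.19%, TRBV13-2 3.23% and 3.13%, and the joint name 3.59% (1.65 to 6.70) and 2.55% (1.23 to 4.64). Over the 6 classes, 5.74% (4.35 to 7.41) and 4.97% (3.93 to 6.19) of contigs were not called productive. Nonproductive contigs had a median of 3 UMIs in WT and 4 in 564Igi, against 10 and 9 for productive ones. With at least 5 UMIs per contig, the share for TRBV12-1 in WT was 7.34% (8 of 109), beside 1.83% (2 of 109) for TRBV12-2, with overlapping intervals. In 564Igi it was 7.18% (4.07 to 11.6, 15 of 209) beside 0.602% (0.0153 to 3.31, 1 of 166), with intervals that did not overlap. Without the high-confidence flag, TRBV12-1 stood at 18.6% and 14.5% and TRBV12-2 at 8.46% and 4.69%.

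**Figure D4:**
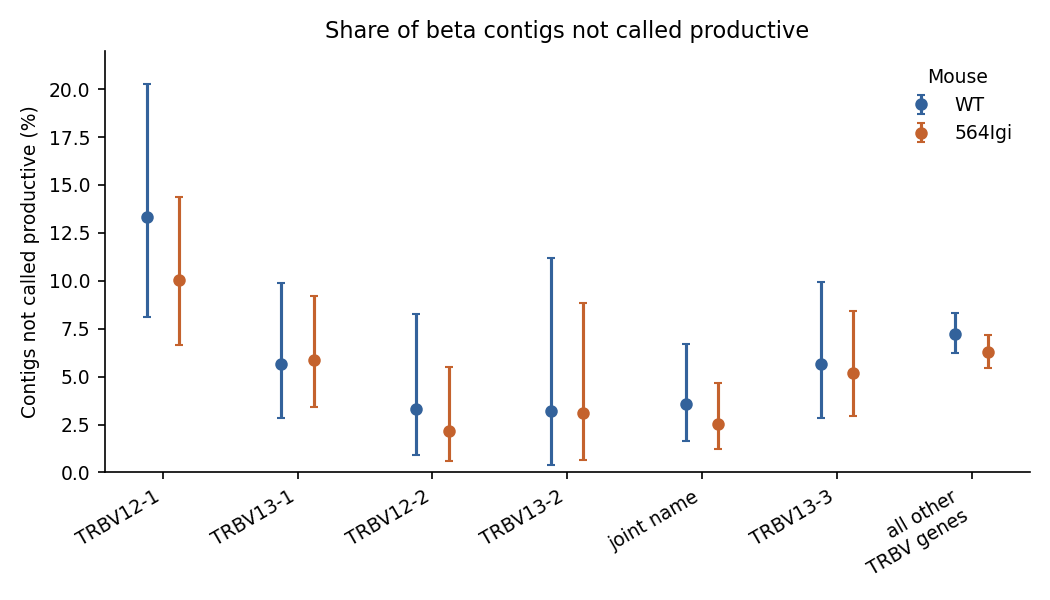
Share of beta contigs that the deposited tables did not call productive (y axis, percent of contigs with at least 2 UMIs and the high-confidence flag) for each name (x axis), with 95% exact intervals in 1 WT (blue) and 1 564Igi (orange) mouse. TRBV12-1 is highest among these classes in both mice, at 13.3% and 10.0%, and TRBV12-2 lies at 3.31% and 2.19%.

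Part of the TRBV12-1 excess was contigs with an open CDR3. Of its nonproductive contigs, 7 in WT and 16 in 564Igi had a CDR3 that was in frame and free of stop codons, which was 5.19% (2.11 to 10.4) and 6.18% (3.57 to 9.84) of all TRBV12-1 contigs. Over the other 5 classes such contigs were 2 of 823 (0.243%) and 5 of 1251 (0.400%), and over all remaining beta variable genes 37 of 2383 (1.55%) and 33 of 3235 (1.02%). Single genes outside these families also had such contigs at this level, with TRBV23 above TRBV12-1 in both mice at 14% (7 of 50) and 18.2% (8 of 44), TRBV10 above it in WT only at 6.29% and 1.48%, and TRBV1 below it at 4.19% and 3.50%. Each TRBV12-1 contig of this kind had its own CDR3 sequence, 6 of 7 and 15 of 16 had the usual TRBV12-1 start, and the median was 7 UMIs in both mice. The contig with most UMIs in each mouse is shown, with the residue 4 codon in capitals.
WT, TRBJ1-3: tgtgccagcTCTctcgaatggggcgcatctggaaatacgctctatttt
564Igi, TRBJ2-5: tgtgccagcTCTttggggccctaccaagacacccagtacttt
They had 14 and 17 UMIs, on contigs of 941 and 785 bases.

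These cells mostly lacked another beta chain. Of the 7 WT cells, 7 had no productive beta contig and all 7 had a productive alpha contig, and of the 16 564Igi cells 14 had no productive beta contig and 12 had a productive alpha contig. Among cells with an in-frame nonproductive contig of the genes outside TRBV12 and TRBV13, 6 of 37 WT (16.2%, 6.19 to 32.0) and 8 of 33 564Igi (24.2%, 11.1 to 42.3) lacked a productive beta contig. For TRBV23 this was 2 of 7 and 2 of 8, for TRBV10 3 of 11 and 0 of 3, and for TRBV1 0 of 9 and 2 of 10. The TRBV12-1 contigs were also long, with a median of 745 bases outside the CDR3 in WT (654 to 912) and 742.5 in 564Igi (597 to 891), against 621 and 620 for the productive TRBV12-1 contigs. The other TRBV12-1 contigs not called productive, 11 in WT and 10 in 564Igi, had no CDR3 call, and 3 and 0 of their cells lacked a productive beta contig. What in these contigs led to the nonproductive call was not tested.

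Of the cells whose primary chain was a TRBV12 or TRBV13 gene, 3.70% in WT (2.55 to 5.19) and 5.50% in 564Igi (4.34 to 6.85) had a second productive beta chain, against 5.28% (4.36 to 6.32) and 7.59% (6.64 to 8.63) of cells with another primary gene. The intervals overlapped in both mice. As the second chain itself, these genes made up 39 of 143 second chains in WT (27.3%, 20.2 to 35.3) and 88 of 288 in 564Igi (30.6%, 25.3 to 36.2), close to their share of primary chains. By class of the primary chain, a second chain was in 7.14% and 6.83% of TRBV12-1, 1.69% and 6.72% of TRBV13-1, 2.70% and 4.71% of TRBV12-2, 1.75% and 2.30% of TRBV13-2, 3.48% and 4.43% of joint-name and 5.11% and 6.27% of TRBV13-3 cells. In 564Igi, the shares of second and of primary chains had intervals apart for TRBV12-1 and, in the opposite direction, for TRBV13-1. How often this occurs over all beta variable gene names was not counted. TRBV12-1 supplied 28 of the 288 second chains (9.72%, 6.56 to 13.7) and 4.92% (4.28 to 5.62) of primary chains, and TRBV13-1 supplied 6 (2.08%, 0.768 to 4.48) and 6.43% (5.71 to 7.22). In WT they supplied 5 (3.50%, 1.14 to 7.97) and 6 (4.20%, 1.56 to 8.91) of 143, with overlapping intervals. The other classes had overlapping intervals in both mice, with TRBV12-2 at 4.20% and 3.13% of second chains, TRBV13-2 at 2.10% and 2.08%, the joint name at 8.39% and 7.29% and TRBV13-3 at 4.90% and 6.25%. In 5 WT and 13 564Igi cells both chains were TRBV12 or TRBV13 chains.

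The J segments lie in 2 clusters, each with its own D and constant gene. The 6 classes together took the first cluster in 35.4% (32.2 to 38.7) of primary chains in WT and 34.8% (32.3 to 37.5) in 564Igi, against 34.6% and 35.9% for the other genes. Of the pairs of a beta variable gene name with a TRBJ gene, 0.794% of 252 had exact intervals that did not overlap those of the comparison genes in both mice, in the same direction. For the 6 classes this was 1 of 72 pairs. That pair was TRBV12-1 with TRBJ1-1, seen in 3 of 112 WT chains (2.68%, 0.556 to 7.63) against 229 of 2104 chains of other genes (10.9%), and in 8 of 205 564Igi chains (3.90%, 1.70 to 7.54) against 347 of 2820 (12.3%). TRBV12-2, with the same CDR3 start, had TRBJ1-1 in 12 of 111 (10.8%) and 16 of 170 (9.41%) chains. TRBJ1-1 is the J segment closest to the first D segment. In the 564Igi mouse TRBV12-1 also had a low share of the first cluster (24.9%, 19.1 to 31.4), which in WT was 31.3% (22.8 to 40.7).

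With each mouse counted on its own, 4.96% of 504 pairs of a gene name and a TRBJ gene had intervals that did not overlap. For these classes the further pairs were the joint name with TRBJ1-2 in WT (9.57%, 22 of 230, against 4.56%) and TRBV12-2 with TRBJ2-5 in 564Igi (18.8%, 32 of 170, against 11.7%). The joint name with TRBJ1-2 stood at 5.26% in 564Igi, and TRBV12-2 with TRBJ2-5 at 19.8% (22 of 111, against 11.7%) in WT, both with overlapping intervals. The most used J segment was TRBJ2-7 for the joint name (20.9% and 23.0%), TRBV12-1 (26.8% and 22.9%), TRBV13-1 (21.3% and 19.4%) and TRBV13-3 (15.3% and 19.2%), and TRBJ2-5 for TRBV12-2. For TRBV13-2 it was TRBJ2-7 in WT (19.3%, 11 of 57) and TRBJ1-1 in 564Igi (16.1%, 14 of 87).

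Using the mean distance between J profiles over both mice as the measure of likeness, and comparing each class with the 16 other names that had at least 100 cells in each mouse, TRBV13-1 was nearest to TRBV26 (8.45% of chains would have to change J segment) and TRBV3 (9.21%). The joint name was nearest to TRBV13-1 (9.92%) and TRBV5 (11.6%), TRBV13-3 to TRBV1 (9.75%) and TRBV3 (11.2%), TRBV12-2 to TRBV29 (14.8%) and the joint name (14.97%), and TRBV12-1 to TRBV2 (16.6%) and the joint name (16.8%). The profile of a class moved by as much between the mice, from 7.35% for TRBV13-1 to 17.6% for TRBV12-1. TRBV13-2 had too few cells for this measure.

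Pooled over these classes, a larger share of CDR3s had at least 14 residues than pooled over the other genes. At least 14 residues were counted in 65.7% (62.5 to 68.9) of their chains in WT and 64.8% (62.2 to 67.3) in 564Igi, against 56.2% (54.1 to 58.4) and 57.0% (55.1 to 58.8) of the other chains. The median was 14 residues for these classes and for the other genes in both mice. The mean for these classes was 13.9 residues in both mice (SD over cells 1.44 and 1.39), against 13.7 and 13.6. Single genes on both sides varied more than this difference: TRBV5 stood at 76.4% and 82.4% and TRBV2 at 78.5% and 73.3%, while TRBV1 stood at 10.7% and 12.7% and TRBV20 at 33.6% and 34.2%. Joint-name chains stood at 70.0% (63.6 to 75.8) and 72.3% (67.4 to 76.9), TRBV13-2 at 66.7% and 65.5%, TRBV13-1 at 65.7% and 61.6%, TRBV12-1 at 65.2% and 61.5%, TRBV12-2 at 60.4% and 67.6%, and TRBV13-3 at 63.6% and 58.0%. The intervals of the 6 classes overlapped one another in WT, while in 564Igi those of the joint name and TRBV13-3 (51.7 to 64.2) did not.

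The net charge of the CDR3 was lowest for the joint name among these classes, counting lysine and arginine as positive and aspartate and glutamate as negative. The mean net charge was -1.33 in both mice for the joint name (SD over cells 0.981 and 0.997), -1.19 and -1.18 for TRBV13-2, -1.13 and -1.12 for TRBV13-1, -0.898 and -0.871 for TRBV13-3, -0.821 and -0.863 for TRBV12-1 and -0.856 and -0.629 for TRBV12-2. The other beta variable genes together had -0.604 and -0.594, and some of them lay within the range of these classes, such as TRBV5 at -1.11 and -1.08 and TRBV2 at -0.950 and -1.17. The usual start of the TRBV13 and joint-name chains holds an aspartate codon (bases 13 to 15), and that of the TRBV12 chains a leucine codon. A CDR3 with a positive net charge was found in 2.61% (0.963 to 5.59) and 3.60% (1.93 to 6.08) of joint-name chains and in 11.1% (9.81 to 12.5) and 11.3% (10.1 to 12.5) of the other genes' chains. TRBV13-2 had 3.51% and 3.45%, TRBV12-2 4.50% and 7.65%, TRBV13-3 6.82% and 11.4%, TRBV13-1 9.55% and 7.09% and TRBV12-1 9.82% and 6.83%, and TRBV5 had 3.70% and 3.44%.

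The match to the first 15 bases of the usual start differed between TRBV13-1 and TRBV13-3, which share that start. Germline segments were not used here, so a match means only that the bases equal the most frequent start of the class. All 15 bases matched in 69 of 178 WT and 109 of 268 564Igi TRBV13-1 chains (38.8%, 31.6 to 46.3, and 40.7%, 34.7 to 46.8), but in 41 of 176 and 67 of 255 TRBV13-3 chains (23.3%, 17.3 to 30.2, and 26.3%, 21.0 to 32.1). The intervals did not overlap in either mouse. For TRBV12-1 and TRBV12-2 the shares were alike, at 37.5% and 36.9% in WT and 33.7% and 35.9% in 564Igi. All 15 bases matched in 50.9% (44.2 to 57.5) and 47.9% (42.7 to 53.2) of joint-name chains and in 42.1% (29.1 to 55.9) and 49.4% (38.5 to 60.4) of TRBV13-2 chains.

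The alpha partners of these chains were read in the 675 WT and 1009 564Igi cells that also had a productive alpha chain. Of all pairs of a beta variable gene name with a TRAV gene, 0.304% of 987 had exact intervals that did not overlap those of the comparison cells in both mice, in the same direction, and for the 6 classes this was 2 of 282. Both were with TRAV11, the alpha segment of invariant NKT cells. TRAV11 was the alpha partner in 14 of 174 WT (8.05%, 4.47 to 13.1) and 29 of 281 564Igi (10.3%, 7.02 to 14.5) joint-name cells, and in 5 of 144 (3.47%, 1.14 to 7.92) and 8 of 201 (3.98%, 1.73 to 7.69) TRBV13-1 cells. In cells with other beta genes it was 6 of 1542 (0.389%) and 17 of 2153 (0.790%). These comparison cells leave out every cell with a TRBV12 or TRBV13 chain, and so most cells with the invariant alpha chain. With each mouse counted on its own, 0.687% of 2184 pairs had intervals that did not overlap, and for these classes the 1 further pair was TRBV12-2 with TRAV5-1 in WT (5 of 83 cells, 6.02%, against 0.713%). Without the cells that carry the invariant alpha chain, and separately with at least 5 UMIs per contig, 0 pairs had intervals that did not overlap in both mice. These settings could not test the TRAV11 pairs, as a call needed at least 20 cells with the TRAV gene in each mouse. The first removes most TRAV11 cells, and the second left 10 WT cells with the invariant alpha chain and a primary beta chain.

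Invariant NKT-like cells, taken as cells with a productive alpha contig that joins TRAV11 or TRAV11D to TRAJ18, numbered 30 in WT and 60 in 564Igi among cells with a primary beta chain. Of these, 23 WT (76.7%, 57.7 to 90.1) and 45 564Igi cells (75%, 62.1 to 85.3) used a TRBV12 or TRBV13 name, against 29.8% (27.9 to 31.8) and 31.1% (29.4 to 32.7) of the other paired T cells. The joint name alone was on 14 of 30 (46.7%, 28.3 to 65.7) and 32 of 60 (53.3%, 40.0 to 66.3) of them, against 7.32% (6.26 to 8.49) and 8.03% (7.09 to 9.04) of other cells. TRBV13-2 by its own name was on 2 and 1 of these cells, so the sum was 16 of 30 (53.3%, 34.3 to 71.7) and 33 of 60 (55.0%, 41.6 to 67.9).

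The other members had smaller shares. TRBV13-1 was on 5 of 30 (16.7%, 5.64 to 34.7) and 8 of 60 (13.3%, 5.94 to 24.6) invariant NKT-like cells, against 6.36% and 6.22% of other cells, with overlapping intervals. With at least 5 UMIs per contig it was on 2 of 10 and 0 of 17. TRBV13-3 was on 2 (6.67%) and 4 (6.67%), close to the 6.45% and 6.09% of other cells. TRBV12-1 and TRBV12-2 were each on 0 of 30 and 0 of 60, which allows shares of up to 10.0% and 5.00%, so a share like the 3.80% to 4.71% of other cells could not be told from 0 at this number of cells. TRBV29 (Vβ7 in the older naming) and TRBV1 (Vβ2), further known partners of the invariant alpha chain, were on 4 and 9 cells (13.3%, 3.76 to 30.7, and 15%, 7.10 to 26.6) and on 1 and 3 cells (3.33% and 5.00%). Among other cells TRBV29 was on 3.66% and 3.09%, with intervals apart in 564Igi only. TRBV1 was on 6.77% and 6.58% of other cells, with overlapping intervals.

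**Figure D5:**
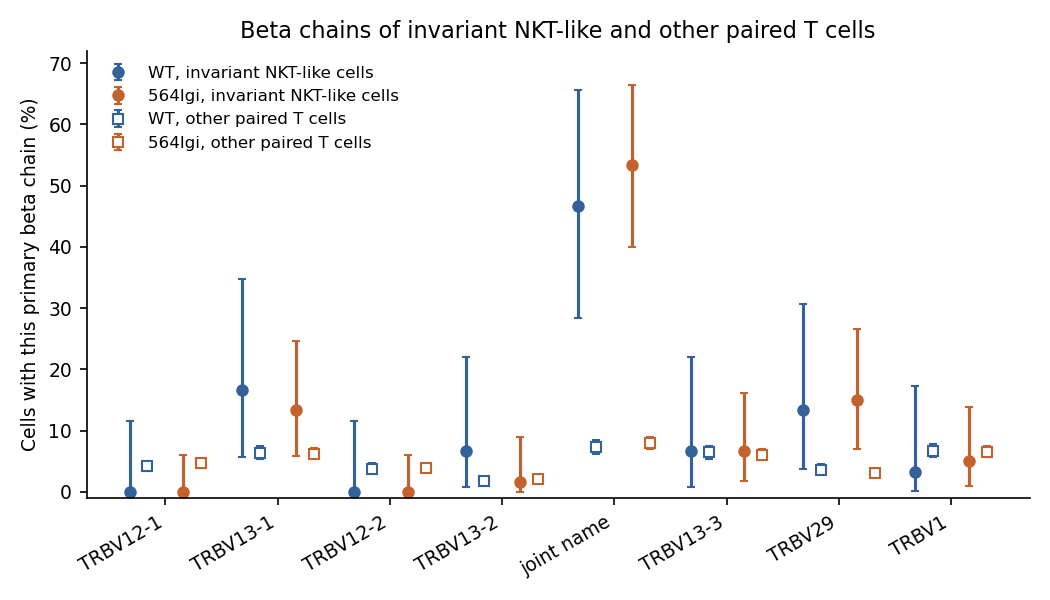
Share of cells whose primary beta chain had each name (y axis, percent) among invariant NKT-like cells (filled circles, 30 WT and 60 564Igi cells) and among other paired T cells (open squares), with 95% exact intervals. The joint name stands at 46.7% and 53.3% of invariant NKT-like cells against 7.32% and 8.03% of other cells, and TRBV12-1 and TRBV12-2 stand at 0.

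The beta chains of these cells were all different. The 23 WT and 45 564Igi invariant NKT-like cells with a TRBV12 or TRBV13 name had 23 and 45 distinct beta chains (V gene, J gene and CDR3 nucleotides). The 31 and 61 invariant alpha contigs of these libraries held 6 and 5 distinct CDR3 nucleotide sequences. Of the chains named TRBV13-2 or joint in these cells, 4 of 16 in WT and 13 of 33 in 564Igi used the first J cluster, and TRBJ2-7 was used by 6 and 3. Seen from the beta chain, 8.05% (4.47 to 13.1) of paired joint-name cells in WT and 11.4% (7.92 to 15.7) in 564Igi carried the invariant alpha chain, against 1.35% (0.915 to 1.93) and 1.90% (1.45 to 2.44) of all paired T cells. TRBV13-1 cells carried the invariant alpha chain in 3.47% (1.14 to 7.92) and 3.98% (1.73 to 7.69), with intervals that overlapped those of all paired T cells. Outside these families, TRBV29 cells carried it in 4.76% (1.31 to 11.7) and 8.57% (3.99 to 15.6), with intervals that overlapped those of the joint name.

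Few chains were found in both mice. Identical V gene, J gene and CDR3 nucleotides occurred for 5 chains, which was 0.588% of the 850 distinct WT and 0.374% of the 1338 distinct 564Igi chains of these classes. For the other genes 4 chains were shared (0.193% and 0.144%). The 5 chains are shown with capitals for the leading bases that match the usual start of the class.
TRBV12-1, TRBJ1-2: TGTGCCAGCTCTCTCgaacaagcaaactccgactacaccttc
TRBV12-1, TRBJ2-3: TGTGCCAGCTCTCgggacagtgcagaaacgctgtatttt
TRBV12-2, TRBJ2-5: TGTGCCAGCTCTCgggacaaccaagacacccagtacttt
joint name, TRBJ2-4: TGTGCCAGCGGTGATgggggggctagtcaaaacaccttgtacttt
TRBV13-3, TRBJ2-7: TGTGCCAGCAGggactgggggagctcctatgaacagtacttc
Each was in 1 cell of each mouse, and none of these cells had a barcode found in both mice. The joint-name chain was in an invariant NKT-like cell in 564Igi and in another T cell in WT. By amino acids, 12 chains were shared (1.42% and 0.900%), and 7 of them had the joint name. For the other genes 20 were shared by amino acids (0.970% and 0.720%).

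Expanded clones were rare among these chains. The largest set of cells with an identical beta chain held 4 cells in WT (a TRBV12-2 chain) and 2 in 564Igi, and cells in such sets made up 2.89% (1.88 to 4.24) and 1.19% (0.681 to 1.92) of the cells. For the other beta genes the largest sets held 9 and 8 cells, with 2.66% and 2.23% of cells in sets.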

How the data were processed

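The deposited tables hold 1 assembled contig per line with read and UMI counts (whole numbers, not normalized, per the file headers), the contig length in bases, a cell call, a confidence flag, gene names and the CDR3, all as the authors deposited them. Cell Ranger 3.0.2 and mm10 are listed in the submitters' processing notes. The rules behind the cell call, the flag and the joint name are, in the sources used here, not given. Contigs of T cells with the flag and at least 2 UMIs were kept, and the productive contig with most UMIs was a cell's primary chain. No doublet caller was run, and barcodes called in both tables of a mouse were left out. Shares have exact 95% intervals, and differences use Newcombe's method. A share was called different where intervals did not overlap, for names or genes with at least 20 cells. A share of 0 allows 3 counts. The scripts were tested on simulated data (SciPy 1.17.1 for intervals, with NumPy 2.4.6 and pandas 2.3.3 under Python 3.11.15).

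The members and lists were chosen with earlier results of these data known. The rule named all 5 genes and the joint name, TRBV29 and TRBV1 beside invariant NKT-like cells, called TRBJ and TRAV partners up to 3 per class, the 2 nearest names by J profile, and up to 3 shared chains per class. Partners that stood out in 1 mouse, TRBV3, the single other genes named beside pooled ones, the thresholds of 800 bases and of 10 UMIs, the comparison of contigs under different names in a cell and the in-frame TRBV12-1 contigs were chosen after the data were seen. Alternatives changed the UMI minimum, the flag, the barcodes, the chain counts and the assignment of the joint name.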

Additional observations from a re-analysis of the deposited data

Results flagged for a closer look

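The pairing of the joint name with TRAV14-1 stood on opposite sides of the other beta genes in the 2 mice. In WT, 6 of 174 paired joint-name cells used TRAV14-1 (3.45%), against 17 of 1542 cells with other beta genes (1.10%), a difference of 2.35 points (0.0762 to 6.28). In 564Igi, 0 of 281 did, against 34 of 2153 (1.58%), a difference of -1.58 points (-2.20 to -0.188). The difference between the mice was not tested. Over all pairs of a beta variable gene name with a TRAV gene, each mouse counted on its own, 0.687% of 2184 had intervals that did not overlap, and in neither mouse was this pair among them.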

How the results depend on the processing

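Of 257 values recomputed under 14 settings, 237 stayed within the counting interval of the value reported and 18 left it. The other 2 were differences whose interval came to include 0. Counts of names or pairs with intervals apart have no such interval and were judged by their ratio instead. Only the differences between the mice could change sign, and 0 did. Some outcomes were fixed in advance. Counting the joint name as TRBV13-2 or TRBV12-2 had to raise the share of that gene and could not change the other names. With at least 5 UMIs, 2.71% of WT and 2.63% of 564Igi TRBV12 and TRBV13 contigs were not called productive, and without the high-confidence flag 8.68% and 7.48%. With at least 5 UMIs, and with invariant NKT-like cells left out, 0 alpha partners had intervals apart from those of the other genes in both mice instead of 2. Under either setting too few TRAV11 cells were left for the 2 pairs to be called, so these settings did not test them. In cells with exactly 1 productive beta and 1 productive alpha contig, the genes supplied 31.3% of WT chains, and the difference between the mice was 1.77 points, with an interval that included 0 (as for TRBV12-1, 0.615 points). This setting and 5 others (1 UMI, barcodes of both tables kept, no flag, invariant NKT-like cells left out, in-frame TRBV12-1 contigs counted) were added for the difference after the data were seen. Over the first 15 bases instead of 12, 50.9% of WT and 47.9% of 564Igi joint-name chains started as TRBV13-2. Counted as TRBV12-2, the joint name would bring that gene to 11.5% and 12.7%. The cause was not tested, other than that the smaller sets hold fewer cells. No paired analysis was possible because each genotype has 1 mouse. With at least 5 UMIs, 10 WT and 17 564Igi invariant NKT-like cells were left, and TRBV13-1 was on 0 of the 17.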

Other observations

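Among paired cells with a TRBV12 or TRBV13 chain, 13.3% (10.9 to 16.1) in WT and 13.1% (11.1 to 15.3) in 564Igi had a second productive alpha chain, against 14.9% (13.1 to 16.7) and 15.2% (13.7 to 16.8) of cells with other beta genes. Among the classes, TRBV12-1 had 17.6% (10.4 to 26.98) and 13.7% (8.57 to 20.4), TRBV12-2 had 10.8% (5.08 to 19.6) and 7.56% (3.52 to 13.9), TRBV13-1 11.8% and 15.4%, TRBV13-2 12.5% and 10.1%, the joint name 13.2% and 14.2%, and TRBV13-3 13.99% and 12.95%, all with overlapping intervals. Cells with TRAV1 joined to TRAJ33, the alpha chain of mucosal-associated invariant T cells, whose known mouse beta partners include Vβ8 genes, numbered 0 in WT and 2 in 564Igi, and 1 of these had TRBV13-3. The median UMI count of the primary chain differed between the names. TRBV13-1 had 14 and 13.5 UMIs, TRBV12-2 13 and 12, TRBV13-3 11 and 10, TRBV12-1 9 and 8, the joint name 7 and 9, and TRBV13-2 7 and 6.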
